A study of Mus musculus with 6 samples.

Results

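The genes of the protein channel of the endoplasmic reticulum (ER) membrane and of its closest partners were examined in dendritic cells sorted from mouse ovarian tumours. The members were chosen by name, with earlier results of these data known, and number 10 of the 23225 genes in the count table. They are Sec61a1, Sec61a2, Sec61b and Sec61g of the Sec61 channel, Sec62 and Sec63, and the TRAP genes Ssr1, Ssr2, Ssr3 and Ssr4. The cells came from C57BL/6 mice carrying ID8-based tumours, a mouse ovarian cancer line, at day 23, with ascites given as the source. The XBP1-KO group (3 libraries) had XBP1 deleted conditionally in cells positive for CD11c, the integrin chain used to mark dendritic cells, and the WT group (3 libraries) was wild type. XBP1 is a transcription factor that is switched on when the ER stress sensor IRE1 splices its mRNA. The labels do not name the Cre line, the age of the mice or the sort gate, and do not say whether each library is a different mouse. The p-values therefore describe the spread among these libraries, which may be technical. Libraries of a genotype are called a, b and c in column order, and the letters pair nothing.

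Proteins that are secreted, sit in membranes or work inside the ER are threaded through the Sec61 channel while or after they are made. The channel is a complex of an alpha subunit that forms the pore, encoded by Sec61a1 or its paralog Sec61a2, and the small beta and gamma subunits Sec61b and Sec61g. Sec62 and Sec63 help proteins that enter after synthesis, and Sec63 recruits the ER chaperone BiP to the channel. The TRAP complex, made of the alpha, beta, gamma and delta subunits encoded by Ssr1, Ssr2, Ssr3 and Ssr4, sits beside the channel and helps weakly acting signal sequences to open it. Genes of this machinery are known in other secretory cells as targets of XBP1.

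Promoters of the members were read first for the motifs by which XBP1 and the related factor ATF6 are known to act. Windows of 300 bases, from 250 before to 50 after the gene start, were matched by symbol for 8 of the 10 genes in RefSeq's GRCm38 annotation. Windows of Sec61a1 and Ssr2 were not used here. On both strands, none of the 8 held the ER stress element, CCAAT and CCACG with 9 free bases between them, which 0.119% of all 32851 promoter windows held. None held its second form, ATTGG and CCACG with 1 free base between them (0.0365% of all windows) or the unfolded protein response element TGACGTG (2.01%). Of the parts of these motifs, CCACG was found in 4 of the 8 windows (32.8% of all windows) and CCAAT in 3 (37.4%). The core ACGT, which is part of the unfolded protein response element, was found in 5 of the 8 windows and in 30.9% of all windows. The letters CCACGT, searched after the windows were seen, join the CCACG end of the stress element to this core. They were present in Ssr1, Ssr3 and Sec63 and in 8.31% of all windows.

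The 250 bases before the start are shown for Ssr1 and Ssr3, whose levels did not overlap between the genotypes and whose windows hold CCACGT (capitals), and for Sec61b, whose levels overlapped and whose window holds no ACGT. The division does not extend to the rest: Sec63 has CCACGT and overlapping levels, and Sec61g has no ACGT and levels that do not overlap. The windows lie at chr13:37994209-37994458 on the minus strand, chr3:65392554-65392803 on the minus strand and chr4:47474411-47474660 on the plus strand (GRCm38).
Ssr1: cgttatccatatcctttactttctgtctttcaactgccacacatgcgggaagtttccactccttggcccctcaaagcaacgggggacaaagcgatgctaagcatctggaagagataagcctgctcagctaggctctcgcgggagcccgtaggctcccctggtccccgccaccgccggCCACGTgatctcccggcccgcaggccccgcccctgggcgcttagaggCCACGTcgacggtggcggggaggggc
Ssr3: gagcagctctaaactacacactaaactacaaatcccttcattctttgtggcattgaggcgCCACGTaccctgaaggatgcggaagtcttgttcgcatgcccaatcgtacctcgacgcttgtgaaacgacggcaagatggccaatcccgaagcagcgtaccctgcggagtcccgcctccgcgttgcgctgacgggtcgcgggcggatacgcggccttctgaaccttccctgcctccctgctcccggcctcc
Sec61b: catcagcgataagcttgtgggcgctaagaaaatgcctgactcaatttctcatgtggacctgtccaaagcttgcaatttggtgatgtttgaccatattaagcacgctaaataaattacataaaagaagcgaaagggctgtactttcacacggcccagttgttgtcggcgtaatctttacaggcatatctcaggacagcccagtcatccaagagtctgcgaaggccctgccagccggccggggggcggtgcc

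Libraries held between 26946349 and 32709100 counts, and values below are CPM, counts scaled to a common library total, corrected by TMM factors. Of 15958 genes tested with edgeR's quasi-likelihood test, 71 passed an adjusted p of 0.05 (0.445%), 46 of them lower in XBP1-KO (0.288%) and 25 higher (0.157%). Xbp1, the targeted gene, had 32.5, 30.9 and 40.4 CPM in XBP1-KO against 67.2, 48.7 and 76.8 CPM in WT. Its log2 fold change (XBP1-KO over WT) was -0.89 (95% interval -1.28 to -0.50), and edgeR's quasi-likelihood test gave it an adjusted p of 0.0545. Under other settings its adjusted p ran from 0.00148 with DESeq2 to 0.301 with edgeR without WT c. Counts per gene cannot show which Xbp1 transcripts lack the deleted part. On the first principal component, with 34.3% of the variance, the XBP1-KO libraries lay at 33.6, 40.5 and 20, WT b beside them at 14, and WT a and WT c at -34.9 and -73.2. On the second, with 20.9% of the variance, XBP1-KO b and WT b lay at 33.9 and 39.6 and the other libraries at -1.8 or below.

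Of the 10 genes, Sec61a1 fell in XBP1-KO and the other 9 did not pass the test. All 10 passed the filter on low counts. Their levels lay lower in XBP1-KO for 9 genes, of which Sec62 turned to 0.01 under other scalings, and higher for Sec61a2, where 43.9% of all tested genes lay lower. For 5 genes, Sec61a1, Sec61g, Ssr1, Ssr2 and Ssr3, every XBP1-KO library lay below every WT library, a pattern that 10.4% of all tested genes showed (19.2% with either direction). Before adjustment 4 genes, Sec61a1, Sec63, Ssr2 and Ssr3, had a p under 0.05 and lay lower, against 8.26% of all tested genes (12.9% with either direction). The median log2 fold change (XBP1-KO over WT) of the 10 genes was -0.25, that of the 9 genes other than Sec61a1 was -0.24, and that of all tested genes was 0.06. In these bulk libraries a lower share of cells that express a gene and less RNA per cell cannot be told apart.

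**Figure D1:**
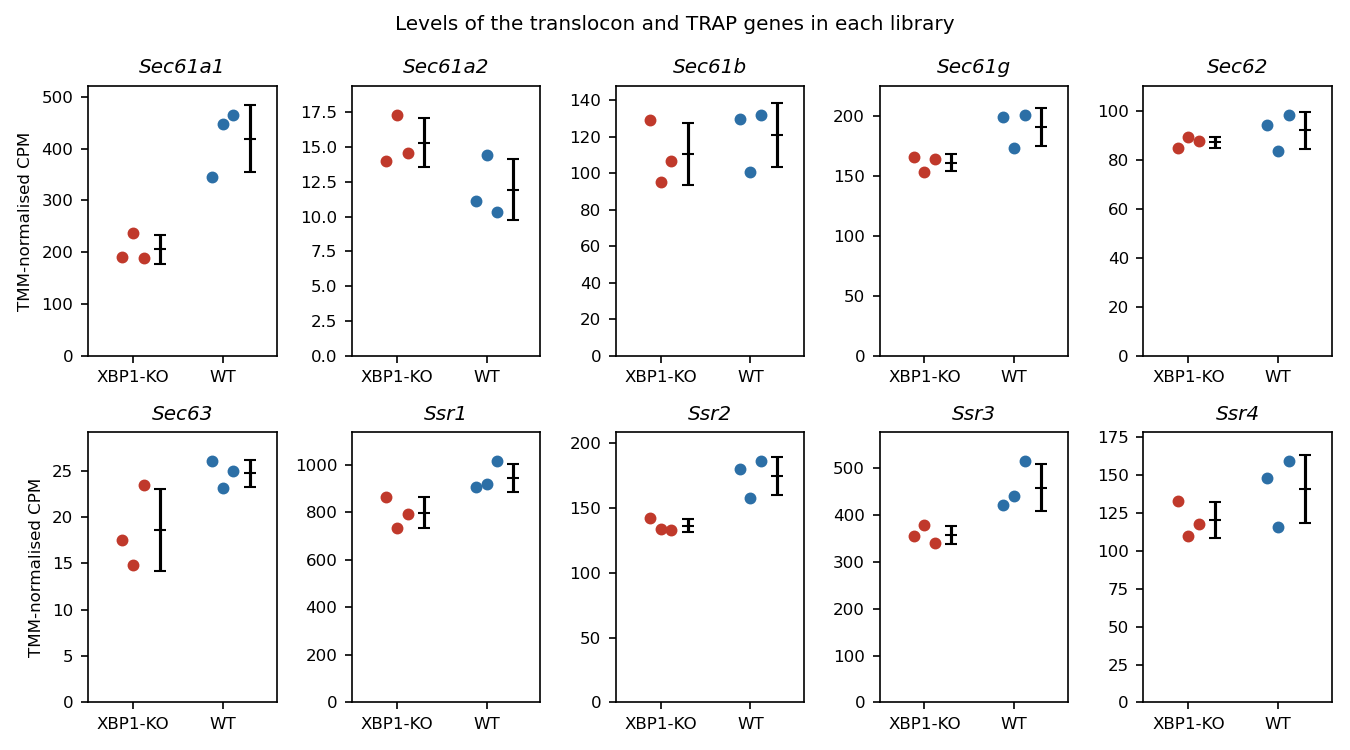
TMM-normalised CPM (vertical axis, from 0) of the 10 genes in the 3 XBP1-KO libraries (red, left) and the 3 WT libraries (blue, right), in the order a, b, c; bars show the mean and SD. Sec61a1 has the widest gap between the genotypes, with 188 to 238 CPM in XBP1-KO and 345 to 465 CPM in WT.

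Sec61a1, the pore-forming alpha subunit, had 191, 238 and 188 CPM in XBP1-KO against 345, 447 and 465 CPM in WT. The highest XBP1-KO library thus lay well below the lowest WT library. The mean was 206 ± 27.8 CPM in XBP1-KO and 419 ± 64.6 CPM in WT (SD, n = 3 each), and the log2 fold change was -1.03 (SE 0.15, 95% interval -1.35 to -0.70), a level in XBP1-KO of 0.49 times that in WT. It passed edgeR's quasi-likelihood test (adjusted p = 0.0142), with rank 12 by p among the genes tested. The call ended without WT c (adjusted p = 0.116), without XBP1-KO a (0.0631) and without XBP1-KO c (0.0861), while the log2 fold change stayed between -1.16 and -0.95 whichever library was left out. Without both WT b and XBP1-KO b it was -1.12 (adjusted p = 0.028, edgeR). Over 19 alternatives the adjusted p ran from 1.52e-06 to 0.116.

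Sec61a2, the paralog of the alpha subunit, had 14.0, 17.3 and 14.6 CPM in XBP1-KO against 11.1, 14.4 and 10.3 CPM in WT. XBP1-KO a lay below WT b, so the groups overlapped. Its log2 fold change was 0.36 (SE 0.20, 95% interval -0.07 to 0.79; adjusted p = 0.48, edgeR). Per length of the longest annotated transcript of each, Sec61a2 made up 8.67%, 8.61% and 9.17% of the alpha subunit RNA in the XBP1-KO libraries against 4.0%, 4.02% and 2.79% in the WT libraries. Sec61a1 therefore remained the main alpha subunit gene in every library. The transcripts of the paralogs share no run longer than 26 bases. Of the 50-base windows of Sec61a2, 35.8% are also found, on the opposite strand, in Nudt5, a nucleotide hydrolase gene, which averaged 43.5 ± 5.46 CPM in XBP1-KO and 46.8 ± 3.39 CPM in WT (SD, n = 3 each). The strand setting is not given in the sources used here, so reads of this stretch cannot be assigned to either gene.

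Sec61b, the beta subunit, had 129, 95.5 and 107 CPM in XBP1-KO against 130, 101 and 132 CPM in WT. Its groups overlapped broadly, with a log2 fold change of -0.13 (95% interval -0.46 to 0.19). Sec61g, the gamma subunit, had 166, 153 and 164 CPM in XBP1-KO against 199, 173 and 201 CPM in WT. Its groups did not overlap, although the gap between XBP1-KO a and WT b was small, and its log2 fold change was -0.25 (95% interval -0.51 to 0.02). Their adjusted p-values in edgeR's test were 0.745 and 0.423. In GENCODE M21, 41.0% of the 50-base windows of Sec61b and 52.6% of those of Sec61g also occur in transcripts of other genes, none of which has a row in the count table. Of the windows of Sec61a1 14.6% recur, all in an antisense transcript with no row. The counts of the small subunits may be less certain than that of Sec61a1, but the effect of these windows on the counts was not measured.

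Sec62, of the pathway for proteins that enter after synthesis, had 84.6, 89.0 and 87.4 CPM in XBP1-KO against 94.0, 83.4 and 98.2 CPM in WT. Its XBP1-KO values all lay within the WT range, and its log2 fold change of -0.08 (95% interval -0.35 to 0.19) became 0.01 with library size alone and with the deposited CPM. Sec63, its partner that recruits BiP, had 17.5, 14.8 and 23.5 CPM in XBP1-KO against 26.0, 23.1 and 25.0 CPM in WT. XBP1-KO c lay among the WT libraries while the other XBP1-KO libraries lay below them, so that Sec63 had the widest relative spread of the 10 genes within XBP1-KO, a coefficient of variation of 23.7%. Its log2 fold change was -0.41 (SE 0.19), and the adjusted p-values of Sec62 and Sec63 in edgeR's test were 0.826 and 0.384. Without XBP1-KO c the log2 fold change of Sec63 was -0.64 (adjusted p = 0.241, edgeR; 0.241 to 0.69 over 19 alternatives).

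The 4 TRAP genes all lay lower in XBP1-KO and none passed. Ssr1, the alpha subunit, had 864, 735 and 793 CPM in XBP1-KO against 904, 916 and 1013 CPM in WT. Ssr2, the beta subunit, had 142, 134 and 133 CPM in XBP1-KO against 180, 158 and 186 CPM in WT. Ssr3, the gamma subunit, had 355, 379 and 340 CPM in XBP1-KO against 421, 441 and 515 CPM in WT. In these 3 genes the groups did not overlap, and the step from the highest XBP1-KO to the lowest WT library was smallest relative to the level in Ssr1. Ssr4, the delta subunit, had 133, 110 and 118 CPM in XBP1-KO against 148, 116 and 159 CPM in WT, and WT b lay inside the XBP1-KO range. Their log2 fold changes were -0.24, -0.36, -0.36 and -0.23 in the order Ssr1 to Ssr4. The 95% intervals of Ssr2 (-0.62 to -0.10) and Ssr3 (-0.63 to -0.08) lay below 0, with adjusted p-values of 0.219 and 0.245 in edgeR's test, and those of Ssr1 (-0.52 to 0.03) and Ssr4 (-0.54 to 0.08) spanned 0, with 0.453 and 0.539. None of these intervals reaches the log2 fold change of -1.03 seen for Sec61a1.

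**Figure D2:**
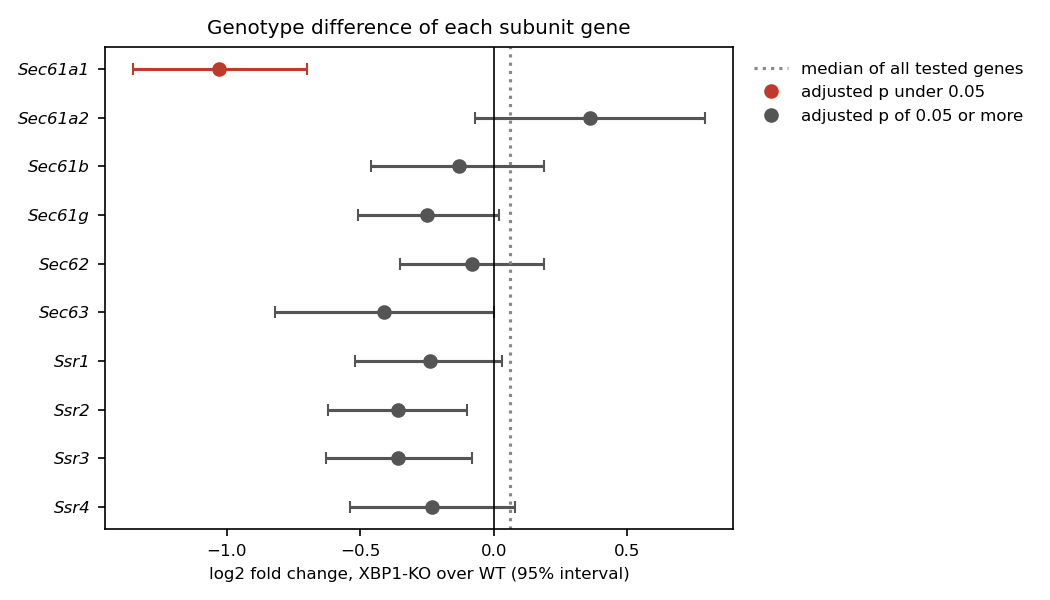
Log2 fold change, XBP1-KO over WT, of each gene (points) with its 95% interval (bars); the solid line marks 0 and the dotted line the median of all tested genes, 0.06. Sec61a1 at -1.03 is the one gene with an adjusted p under 0.05 (red), and its interval meets none of the other 9 but that of Sec63.

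Whether subunits of a complex moved unequally was read from the difference of log2 CPM between a pair of genes within each library, for 7 pairs. Sec61a1 minus Sec61b was 0.57, 1.32 and 0.81 in XBP1-KO against 1.41, 2.14 and 1.82 in WT. Sec61a1 minus Sec61g was 0.20, 0.64 and 0.19 in XBP1-KO against 0.79, 1.37 and 1.21 in WT. Sec61a1 minus Sec61a2 was 3.77, 3.78 and 3.68 in XBP1-KO against 4.96, 4.95 and 5.50 in WT. In these 3 pairs Sec61a1 stood lower relative to the other gene in every XBP1-KO library than in any WT library, by 0.89, 0.78 and 1.39 on average. All 3 pairs contain Sec61a1, so they are not independent of each other or of its fall. How often other pairs of genes fail to overlap was not computed. The pair with Sec61a2 compares alternative alpha subunits and not subunits of the same channel. The exact permutation test, two-sided, gave p = 0.1 for each, the smallest that 3 against 3 libraries allow, and 0.233 adjusted over the 7 pairs. With trends over transcript length and GC content removed, the differences were -0.61 and -0.49 for Sec61b and Sec61g, with an exact permutation p of 0.2, and -1.31 for Sec61a2. Sec62 minus Sec63 averaged 2.25 ± 0.34 in XBP1-KO and 1.89 ± 0.07 in WT (SD, n = 3 each), with overlapping groups and an exact permutation p of 0.2.

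Within TRAP the same differences, with no trend removed, overlapped between the genotypes. Ssr1 minus Ssr4 averaged 2.73 ± 0.02 in XBP1-KO and 2.75 ± 0.20 in WT, Ssr3 minus Ssr4 1.58 ± 0.19 in XBP1-KO and 1.71 ± 0.21 in WT, and Ssr2 minus Ssr4 0.18 ± 0.09 in XBP1-KO and 0.32 ± 0.12 in WT (SD, n = 3 each). Exact permutation p-values were 1, 0.5 and 0.2. With trends over transcript length and GC content removed, Ssr1 minus Ssr4 differed by 0.21 between the genotypes. Its exact permutation p was then 0.1, the smallest possible. Under the same removal Ssr3 minus Ssr4 differed by 0.04 and Ssr2 minus Ssr4 by -0.1, with exact permutation p-values of 0.5 and 0.3. The balance within TRAP thus depends on this setting.

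**Figure D3:**
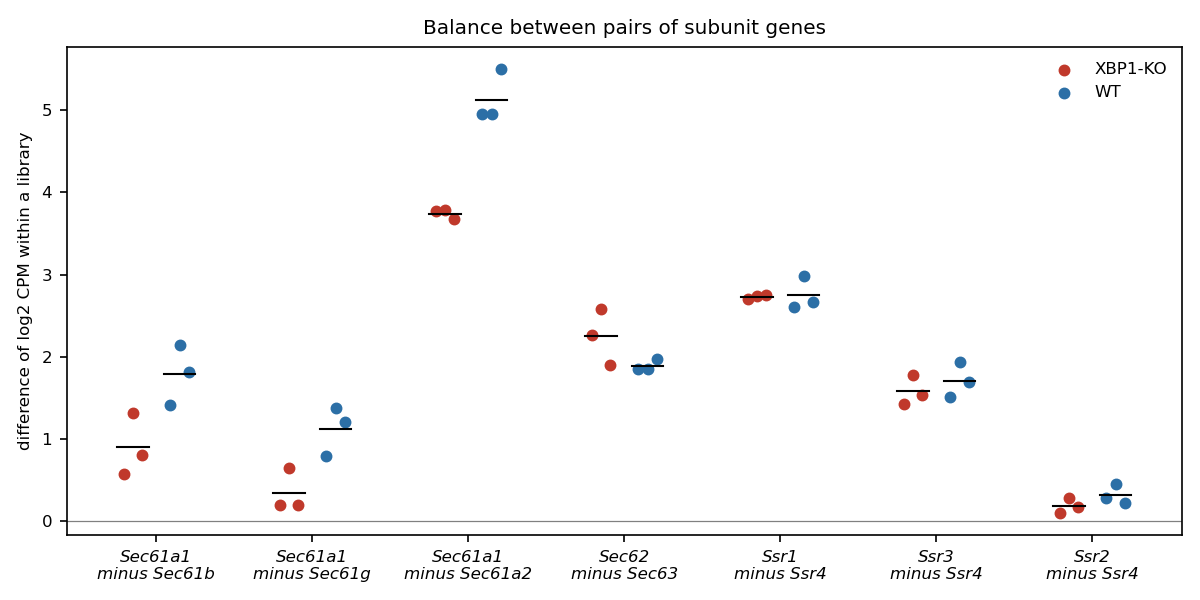
Difference of log2 CPM between the 2 genes of each pair (vertical axis) in the XBP1-KO libraries (red, left of each pair) and the WT libraries (blue, right), with black lines at the group means. The 3 pairs with Sec61a1 do not overlap between the genotypes, with the widest step, -1.39, against Sec61a2, and the other 4 pairs overlap.

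The profiles over the 6 libraries also differed among the genes within a genotype. WT b was below the mean of the WT libraries for 8 of the 10 genes, the exceptions being Sec61a1 and Sec61a2, and WT c was above it for 9. The genes Sec61b, Sec61g, Sec63 and Ssr4 lay at their lowest in XBP1-KO b and, among WT, in WT b, while Sec61a2 lay at its highest in these libraries. Sec61b, Ssr4, Sec61g and Ssr2 have the shortest transcripts of the 10, with median lengths over the principal annotated transcripts of 564, 765, 735 and 1124 bases. Those of Sec61a1, Sec63 and Ssr1 have 3172, 6032 and 9333 bases. Of these long genes only Sec63 lay lowest in both XBP1-KO b and WT b, beside the short Sec61b, Sec61g and Ssr4. The part of transcript length in this pattern was not tested. With length and GC trends removed, the log2 fold changes were -0.34 for Sec61b, -0.46 for Sec61g, -0.50 for Ssr2, -0.41 for Ssr4 and -0.95 for Sec61a1, of which Sec61a1 alone passed in edgeR's test (adjusted p = 0.0347).

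**Figure D4:**
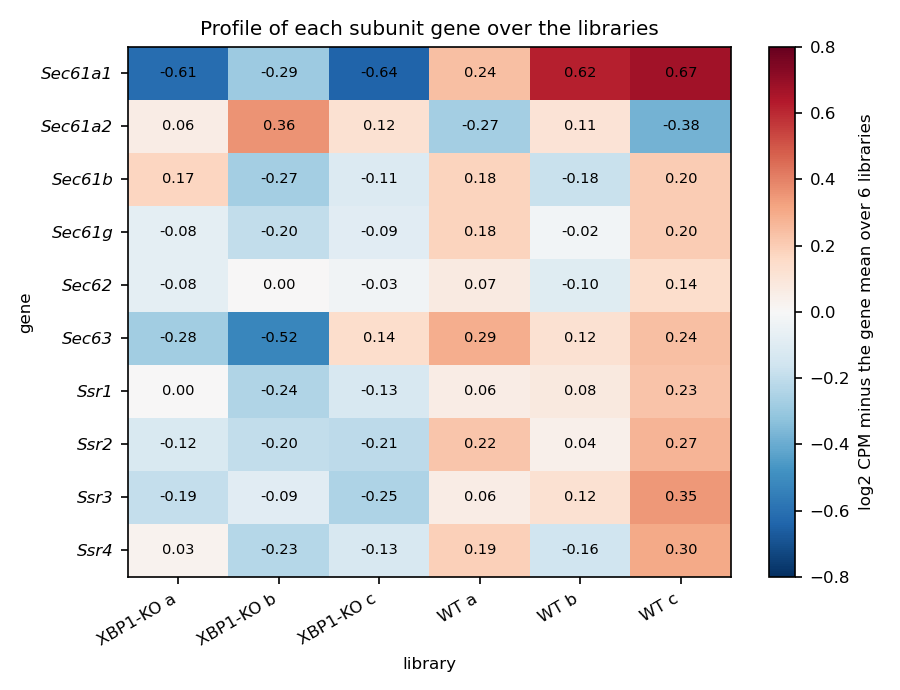
Log2 CPM of each gene (rows) in each library (columns) after subtracting the gene's mean over the 6 libraries, in numbers and colour. Sec61a1 runs between -0.64 and -0.29 in XBP1-KO and between 0.24 and 0.67 in WT, while Sec62 stays within -0.10 and 0.14.

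Levels can be compared between genes only per length, which depends on the transcript. On the scale of CPM per kilobase, Sec61b lay at 196 in XBP1-KO and 215 in WT, and Sec61a1 at 64.8 in XBP1-KO and 132 in WT. Both have a single annotated transcript length here. The beta subunit thus stood above the alpha subunit in both genotypes on this scale. Ssr4 lay at 150 to 157 in XBP1-KO and 176 to 184 in WT over its annotated transcripts. Sec62 lay at 21.9 in XBP1-KO and 23.2 in WT and Sec63 at 3.08 in XBP1-KO and 4.10 in WT. Sec63 was thus below every channel subunit, and Sec62 below all but Sec61a2, which lay at 6.25 to 20.2 in XBP1-KO and 4.88 to 15.8 in WT. Ssr1, Ssr2, Ssr3 and Sec61g lay above Sec62 and Sec63 at any annotated length. Their annotated transcripts differ too much in length to place them against Sec61b or Ssr4. The range was 85.4 to 495 in XBP1-KO and 101 to 586 in WT for Ssr1, and 86.5 to 358 in XBP1-KO and 103 to 425 in WT for Sec61g.

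Sec61a1 was then compared with all 7923 other genes of at least 10 mean CPM by the root mean square difference of their gene-centred log2 CPM over the 6 libraries. The 5 most alike were Surf4, a cargo receptor of ER export, with a difference of 0.08, Stt3a, a catalytic subunit of oligosaccharyltransferase (0.09), Dock2, an activator of Rac in leukocytes (0.12), Hdlbp, an RNA-binding protein of the ER surface (0.12), and Psd4, an activator of Arf6 (0.13). The median over all genes compared was 0.56. The profiles include the step between the genotypes, so genes picked by likeness to Sec61a1 had to lie lower in XBP1-KO. The values of Dock2 and Stt3a below illustrate the match and are not a separate result. The ranks reflect this step too. Dock2 had 282, 300 and 260 CPM in XBP1-KO against 443, 516 and 560 CPM in WT. Stt3a had 163, 201 and 177 CPM in XBP1-KO against 315, 386 and 359 CPM in WT. Among the other translocon and TRAP genes Ssr3 was the most like Sec61a1, at rank 702 with a difference of 0.35, and Sec61a2 the least, at rank 7043 with 0.72.

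The rest of the translocation pathway was read from 6 lists with 49 tested genes, of which 31 lay lower and 18 higher, with 3 falls, no rise and a median log2 fold change of -0.13. The calls were 6.12% of these genes, beside 0.445% of all tested genes, of which 43.9% lay lower and whose median was 0.06. Because the lists were chosen with earlier results of these data known, the contrast with all tested genes is not a test of the pathway. Among 10 tested translocon partners 7 lay lower, and Ccdc47, of the translocon for proteins that span the membrane many times, fell to 68.1 ± 1.31 CPM in XBP1-KO, against 106 ± 6.06 CPM in WT. Tram1, which sits beside the channel, had 143 ± 5.50 CPM in XBP1-KO and 187 ± 23.9 CPM in WT (adjusted p = 0.217, edgeR). Of 6 signal peptidase genes 5 lay lower, and Spcs3, an accessory subunit, fell to 295 ± 22.4 CPM in XBP1-KO, against 494 ± 44.7 CPM in WT. Of 8 genes of the BiP cycle at the translocon all 8 lay lower, and Hyou1, which exchanges the nucleotide of BiP, fell to 25.4 ± 6.58 CPM in XBP1-KO, against 62.8 ± 7.66 CPM in WT (SD, n = 3 each). Hspa5, BiP itself, averaged 1152 ± 159 CPM in XBP1-KO and 1288 ± 140 CPM in WT (adjusted p = 0.672). Adjusted p-values in edgeR's test were 0.0459 for Ccdc47, 0.0289 for Spcs3 and 0.0142 for Hyou1.

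No gene passed in the remaining lists. Of 9 genes of the signal recognition particle and its receptor 6 lay lower, with the smallest p for Srp72, a protein of the particle, at 107 ± 10.4 CPM in XBP1-KO and 151 ± 11.8 CPM in WT (adjusted p = 0.106). Of 9 genes of the EMC, an insertase that works apart from the Sec61 channel, 3 lay lower and 6 higher, with a median of 0.14. Mmgt1, its subunit 5, had the smallest p, with 22.5 ± 4.54 CPM in XBP1-KO and 31.1 ± 2.81 CPM in WT (adjusted p = 0.275). Of 7 genes of tail-anchor insertion, which also bypasses the channel, 2 lay lower, with a median of 0.07. Caml, the receptor of that route, had the smallest p, with 23.8 ± 5.08 CPM in XBP1-KO and 17.0 ± 3.23 CPM in WT (adjusted p = 0.351, SD with n = 3 in all cases, edgeR's test). The difference between these lists was not tested. Ccdc47 passed in 6 of 19 alternatives, and its adjusted p was 0.0591 with limma-voom, 0.0774 with upper quartile factors, 0.164 with library size alone, 0.0673 without robust estimation and 0.0687 with length and GC trends removed (0.00114 to 0.203 over all 19). With 1 library left out, Ccdc47 passed only without XBP1-KO b, Spcs3 without XBP1-KO b or WT b, and Hyou1 without XBP1-KO b or WT a.

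**Figure D5:**
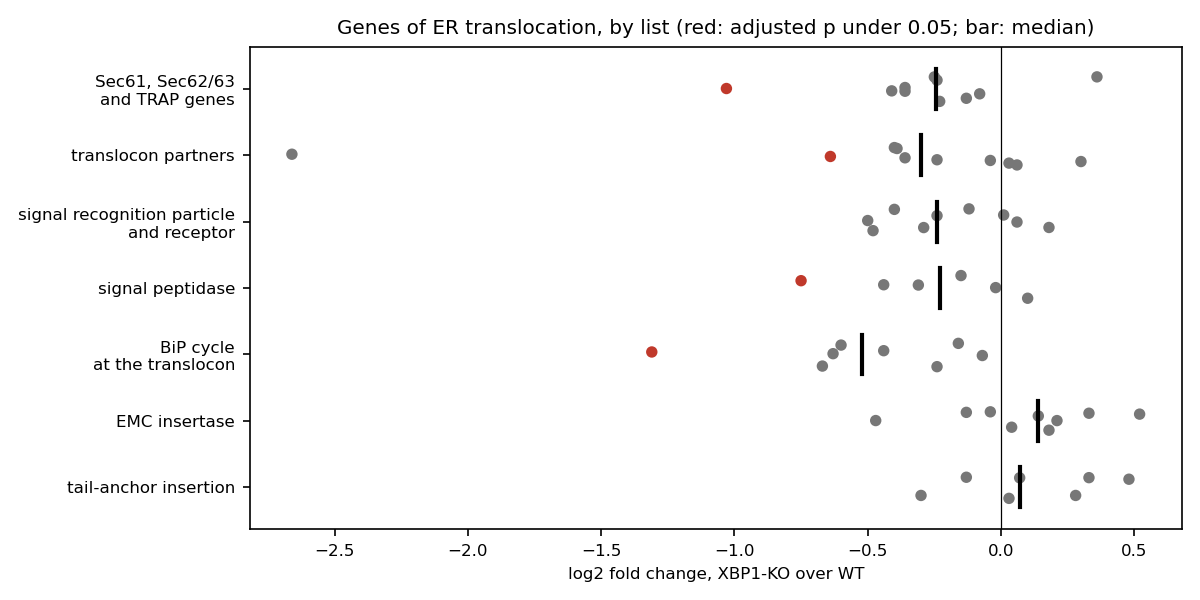
Log2 fold change, XBP1-KO over WT (horizontal axis), of every tested gene in the translocon and TRAP group and in the 6 pathway lists, with red points for an adjusted p under 0.05 and black bars at the list medians. Medians run from -0.52 for the BiP cycle to 0.14 for the EMC; the point at -2.66 is Tram2, with at most 1.38 CPM in any library.

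Markers of the labelled cell type and of other cells were summed per library as CPM over library totals, while values of single genes are TMM-corrected CPM as above. For comparison with the counts below, 43.9% of all tested genes lay lower, 0.288% were called lower and 0.157% were called higher. Of 13 dendritic cell markers 10 lay lower and 3 higher and none passed (median log2 fold change -0.19). Their sums were 73681 to 98812 CPM in XBP1-KO and 79021 to 112125 CPM in WT, most of it Cd74 and H2-Aa of the MHC class II pathway. Apart from genes of that pathway, WT means on this list ran from 8.66 CPM for Zbtb46 to 1632 CPM for Cd209a. Those of the macrophage markers ran from 11.9 CPM for Gata6 to 15673 CPM for Lyz2. The sums of different lists therefore do not give shares of cells. Itgax, the gene of CD11c, had 143, 161 and 133 CPM in XBP1-KO against 109, 94.3 and 106 CPM in WT, higher without overlap (log2 fold change 0.50, adjusted p = 0.106, edgeR). Of 13 T and NK cell markers all 13 lay higher in XBP1-KO and 4 rose (Cd3e, Lck, Nkg7 and Ncr1), with sums of 266 to 411 CPM in XBP1-KO and 145 to 182 CPM in WT; the most abundant were Klrb1c and Cd2. Of 10 B and plasma cell markers 8 lay higher and none passed, with sums of 418 to 604 CPM in XBP1-KO and 193 to 381 CPM in WT, led by Cd79b and Ms4a1. Igj, the immunoglobulin joining chain made by plasma cells, had 9.0, 8.67 and 11.9 CPM in XBP1-KO against 25.7, 21.4 and 5.58 CPM in WT. Sdc1, the plasma cell surface proteoglycan syndecan-1, had 6.62, 2.70 and 5.49 CPM in XBP1-KO against 15.2, 5.38 and 15.2 CPM in WT. These were the 2 genes of the list that lay lower, both with overlapping groups (adjusted p = 0.563 for Igj and 0.261 for Sdc1, edgeR), and WT c held the lowest Igj but, with WT a, the highest Sdc1. Mzb1, of the same list, went the other way, with 14.8, 10.9 and 20.1 CPM in XBP1-KO against 10.6, 6.37 and 9.75 CPM in WT. Its groups did not overlap and it did not pass (log2 fold change 0.78, adjusted p = 0.218, edgeR).

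Of 8 neutrophil markers all 8 lay higher and none passed, with sums of 300 to 469 CPM in XBP1-KO and 85.9 to 236 CPM in WT, led by Retnlg and S100a8. The groups did not overlap for 3 of them, Retnlg, S100a8 and S100a9 (19.2% of all tested genes in either direction). Mpo, Elane, Camp and Ltf reached at most 0.776 CPM in XBP1-KO b and 0.708 CPM in WT b, so their values follow the library as well as the genotype. Of 6 tested mast cell markers 5 lay higher and 3 rose (Cpa3, Cma1 and Tpsb2), with sums of 135 to 198 CPM in XBP1-KO and 108 to 186 CPM in WT. Kit, the most abundant, went the other way, with 56.9, 65.1 and 68.6 CPM in XBP1-KO against 70.4, 140 and 94.9 CPM in WT. It lay lower without overlap and did not pass (log2 fold change -0.68, adjusted p = 0.209, edgeR). Macrophage markers (5 of 10 lower, led by Lyz2 and Cd68), epithelial tumour cell markers (4 of 9 lower, led by Krt19 and Krt18) and fibroblast and endothelial markers (4 of 7 lower, led by Dcn and Pecam1) had no call. Their sums were 16131 to 18221, 132 to 208 and 48.7 to 79.2 CPM in XBP1-KO against 12894 to 20330, 140 to 165 and 49.8 to 63.5 CPM in WT. No marker was at 0 in all libraries. The part of these other cells in the fall of Sec61a1 was not tested.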

How the data were processed

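RNA-seq of sorted tumour dendritic cells gave 3 XBP1-KO and 3 WT libraries. The submitters' processing notes name mm9, RSEM and edgeR but give neither versions nor roles, and the aligner was not stated. The authors deposited whole-number counts for 23225 genes and, for 13946 genes above 1 CPM in at least 2 libraries, CPM values equal to the count over the library total. Column headers give the genotype and no replicate number.

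The deposited counts entered edgeR 4.0.16 (R 4.3.3): filterByExpr, TMM, glmQLFit with robust estimation, genotype as the only term, two-sided, Benjamini-Hochberg over 15958 genes, called under 0.05. SEs are the absolute log2 fold change over the square root of F. With 3 libraries a group and a common biological coefficient of variation of 0.25, the spread between libraries limits precision more than counting error.

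Members and lists were chosen with earlier results of these data known. Named genes were the 10 members, Xbp1, the called genes or smallest p of each pathway list, the 2 most abundant genes of each marker list and the 5 genes most like Sec61a1. Tram1, Hspa5, Tram2, Igj, Sdc1, Mzb1, Itgax, Nudt5 and the called or first-listed markers were named after their values were seen. So were Zbtb46, Cd209a, Gata6, S100a9, Mpo, Elane, Camp and Ltf. Of 143 list entries 138 matched a row, 14 by a synonym in RefSeq's GRCm38 table. Transcript length (the median over a gene's principal transcripts), GC and shared 50-base windows (of 1 transcript a gene) came from GENCODE M21, whose build is not that of the counts; 89.1% of tested genes had a length. Log2 CPM used a prior count of 0.5. Alternatives used DESeq2 1.42.0, limma 3.58.1, the likelihood ratio test, other scalings and filters, the deposited CPM, left-out libraries and removal of length and GC trends.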

Additional observations from a re-analysis of the deposited data

How the results depend on the processing

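Over 19 alternatives Sec61a1 lay lower in each, with log2 fold changes of -1.16 to -0.94, and passed in 15; it also missed with the deposited CPM at log2(value + 0.1) (adjusted p = 0.0571), where 0 of the 10 genes and 0 of the 49 pathway genes passed. None of the other 9 genes passed under any alternative. The number of the 10 genes called ran from 0 to 1 with 1 library left out and that of pathway genes from 0 to 3, both with 0 without XBP1-KO a, XBP1-KO c or WT c, and pathway calls were 1 without WT a or WT b. All calls (71) were 13, 154 and 16 without XBP1-KO a, b and c and 38, 40 and 5 without WT a, b and c. Pathway calls were 6 with DESeq2 and 5 with the likelihood ratio test, and all calls 484 and 255 with these tools, 47 with limma-voom, 25 with library size alone, 252 with no filter, 45 without robust estimation, 25 and 13 with the deposited CPM at log2(value + 1) and log2(value + 0.1) and 23 with length and GC trends removed. With library size alone the all-gene median was 0.136, against 0.057, and that of the 10 genes -0.16, against -0.25. Sec62 turned to 0.01 with library size alone and with the deposited CPM at either pseudocount. Ssr1 minus Ssr4 (-0.02) turned to 0.21 with length and GC trends removed, and 0.08 without WT b and XBP1-KO b, and ran from -0.09 to 0.09 (without WT b) with 1 library left out, and Ssr3 minus Ssr4 (-0.13) to 0.04 with the trends removed. The cause was not tested. No paired analysis was possible because the columns carry no replicate number. With 3 libraries a group the spread limits what can be detected, and a gene that did not pass is not shown to be unchanged.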
